A study of Mus musculus with 24 samples.

Results

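The strain difference between NZO and B6 mice was compared between brown fat and white fat, to ask which genes of brown and white identity lay closer together across these tissues in NZO, and which genes changed in opposite directions. The comparison was the interaction (NZO minus B6 in brown adipose tissue, BAT) minus (NZO minus B6 in gonadal white adipose tissue, gWAT), fitted on 16 of the 24 arrays of the series, 4 per group. NZO/HiBomDife is an inbred strain that becomes obese and prone to diabetes, and C57BL/6 (B6) is the common laboratory strain. The groups were NZO gWAT, B6 gWAT, NZO BAT and B6 BAT, all from male mice given a high-fat diet with 45% fat and sampled at 6 weeks of age, so no group had a control diet. The labels name no other allele or agent, and do not give the age at which the diet began. Of 34947 gene names on the array, 19898 were tested, those with a probe that in each tissue stood well above background throughout 1 strain or both. Whether each sample was a different animal is not stated, so the p-values reflect only the spread of these samples, which may be technical.

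Brown fat burns fatty acids to make heat. Uncoupling protein 1 (Ucp1) lets protons back across the inner mitochondrial membrane without making ATP, and noradrenaline acting through beta-adrenergic receptors switches the process on. White fat stores triglyceride and secretes hormones such as leptin. A separate set of transcription factors, among them Prdm16, Ebf2 and the Ppargc1 coactivators, is known to set and maintain the brown programme, and white depots can take up parts of it.

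Levels below are log2 processed signals after division by their own array's 75th percentile, and all differences are on that log2 scale. The gap of a gene is its BAT level minus its gWAT level within 1 strain, so the interaction equals the NZO gap minus the B6 gap. A gap is called narrower where the interaction passed the test and the gap was smaller in size in NZO than in B6. Tests are from limma with Benjamini-Hochberg adjustment over the 19898 genes, and a gene is called at an adjusted p under 0.05. The arrays had 51.92% to 59.32% of probes well above background and 75th percentile signals of 118.8 to 311.1 units. Pairs of arrays of the same group correlated at 0.975 to 0.993 across probes, and pairs from different tissues at 0.874 to 0.93. Precision is limited by the number of arrays, and the interaction had a median standard error (SE) of 0.228.

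Each level rests on a probe of 60 bases, and no NZO genome was used here to check the bases under it. The sequences of 4 probes are shown because the results turn on these genes and their bases can be checked against an NZO genome, with positions on the mouse build mm9 from the array files. The Ucp1 probe lies at chr8:85821788-85821847 on the plus strand. The second Otop1 probe lies at chr5:38694026-38694085 on the plus strand, the Agt probe at chr8:127083142-127083201 on the minus strand and the Klhdc9 probe at chr1:173288871-173288930 on the minus strand. No bases are in capitals, because no motif within the probes is discussed.
Ucp1: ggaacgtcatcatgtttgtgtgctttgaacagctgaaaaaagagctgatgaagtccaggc
Otop1, second probe: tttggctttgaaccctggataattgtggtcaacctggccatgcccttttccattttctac
Agt: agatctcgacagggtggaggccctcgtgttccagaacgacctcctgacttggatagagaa
Klhdc9: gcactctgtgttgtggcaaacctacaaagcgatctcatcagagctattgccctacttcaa

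The interaction was called for 3565 genes (17.9%), 1725 higher (8.67%) and 1840 lower (9.25%). With arrays centred on their median in place of the 75th percentile, the split was 662 higher and 1984 lower, or 25% higher in place of 48.4%, and the median interaction of all genes moved from -0.0252 to -0.253. Of the called genes, 1158 were higher and 1113 lower in NZO gWAT without a call in BAT, whereas 250 were higher and 346 lower in NZO BAT without a call in gWAT. The gap was smaller in size in NZO for 1273 genes (6.4%) and not smaller for 2292 (11.5%), and a gap that turned its sign can fall in either count. Across genes, which are not independent replicates, the strain differences of the 2 tissues, which share no arrays, had a Pearson correlation of 0.465 and a Spearman correlation of 0.284. With the slide as a fixed block 2138 genes were called, and 1905 (53.4%) of the 3565 were among them.

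Genes that carry out the work of brown fat lay closer together across the tissues in NZO, and 13 of the 16 that did so had a strain difference called in gWAT alone. Among all genes, 656 of the 1273 with a narrower gap had a strain difference called in gWAT alone. Of 26 listed brown effectors, all tested, the interaction was lower for 17 (9.25% of all genes), higher for 2 (8.67%) and not called for 7. The gap was narrower for 16 of 26, against 3.5% of all genes for a narrower gap with BAT higher in B6. The median interaction of the 26 was -1.92, against -0.03 over all genes tested, with a median strain difference of 1.48 in gWAT (0.02 over all genes) and -0.37 in BAT (0.01). Their median gap was 5.62 in B6 and 3.85 in NZO. In gWAT 14 were higher in NZO (19.1% of all genes) and 3 lower (18%), and in BAT none was higher (8%) and 5 were lower (7.59%). The members of this and the other lists were chosen with earlier results of these data known, so their counts are descriptions.

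Ucp1, the proton leak itself, had the largest narrowing of the effectors. On the 4 B6 gWAT arrays it read -3.76, -4.58, -4.01 and -3.10, of which the reading of -4.58 was not well above background, and on the NZO gWAT arrays 3.78, 3.83, 4.0 and 4.21. In BAT it read 10.42, 10.19, 10.53 and 10.39 in B6 and 10.03, 10.19, 9.82 and 9.98 in NZO. The groups were far apart in gWAT and touched in BAT, where 1 array of each strain read 10.19. The strain difference in gWAT was 7.82 (SE 0.23, adjusted p = 7.04e-12, 225-fold) and that in BAT -0.38 (SE 0.23, adjusted p = 0.325). The gap of Ucp1 fell from 14.24 in B6 to 6.05 in NZO (interaction -8.19, SE 0.32, adjusted p = 3.13e-09), so that NZO gWAT still had far less Ucp1 signal than BAT of either strain. In bulk tissue, more cells of a kind and more RNA per cell cannot be told apart, here and in every result below.

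Otop1, which encodes a proton channel and is used as a brown fat marker, showed the same order of groups. It read -2.72, -2.65, -3.03 and -2.26 in B6 gWAT and 2.74, 2.36, 2.37 and 2.70 in NZO gWAT. In BAT it read 6.27, 6.35, 6.59 and 6.37 in B6 and 5.89, 6.52, 5.58 and 6.09 in NZO. All NZO gWAT arrays lay above all B6 gWAT arrays, and the BAT groups overlapped. The gWAT difference was 5.21 (37-fold, adjusted p = 1.26e-10) and the gap was 9.06 in B6 and 3.48 in NZO (interaction -5.58, SE 0.27, adjusted p = 3.61e-08). The second probe of the gene, dimmer, gave an interaction of -2.49 (SE 0.51, adjusted p = 0.00409) and a gWAT difference of 2.1, so the direction held and the size did not.

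Cidea, a lipid droplet protein abundant in brown fat, and Cpt1b, the muscle and brown fat isoform of the enzyme that admits long-chain fatty acids to mitochondria, followed. Cidea read 1.09, 1.02, 0.12 and 1.5 in B6 gWAT and 4.88, 4.45, 4.23 and 5.26 in NZO gWAT, against 10.41 to 10.66 in B6 BAT and 10.37 to 10.63 in NZO BAT. Its gap was 9.62 in B6 and 5.80 in NZO (interaction -3.82, SE 0.36, adjusted p = 1e-05). Cpt1b read -2.09, -2.38, -2.28 and -1.85 in B6 gWAT and 1.14, 0.96, 0.98 and 1.22 in NZO gWAT, a 9.34-fold difference, against 6.29 to 6.47 and 6.04 to 6.47 in B6 and NZO BAT. For both genes the strains were apart in gWAT and overlapped in BAT. The gap of Cpt1b was 8.52 in B6 and 5.11 in NZO (interaction -3.41, SE 0.18, adjusted p = 6.88e-08), and its second probe gave -2.83.

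Another 9 effectors narrowed from the gWAT side alone. They were Fabp3, a fatty acid carrier (interaction -2.59), S100b (-2.12), Gk, the glycerol kinase that lets adipocytes reuse glycerol (-2.11), Cox7a1, a subunit of cytochrome c oxidase (-2.08), the potassium channel gene Kcnk3 (-2.06), the lipid droplet protein Plin5 (-1.91), Pdk4, which restrains pyruvate entry to oxidation (-1.89), the oxidase subunit Cox8b (-1.73) and the purinergic receptor P2rx5 (-1.35). Over all 13 genes called on the gWAT side alone, the gWAT difference ran from 1.36 to 7.82 and the BAT difference from -0.65 to 0.48. The gWAT arrays of the strains did not overlap for any of the 13, against 34.8% of all genes, but the 13 were counted here because that difference was called. In BAT the strains did not overlap for Kcnk3 either (difference -0.44, not called) and only touched for Ucp1 (-0.38), both lower in NZO. For the rest of the 13 they overlapped in BAT. Cox7a1, for example, read 2.95, 2.80, 2.49 and 3.31 in B6 gWAT, 5.02, 4.74, 4.61 and 5.39 in NZO gWAT, and between 9.77 and 9.97 on all 8 BAT arrays. With the slide as a fixed block Pdk4 was no longer called (adjusted p = 0.132), and with all 24 arrays of the series in the fit Kcnk3 was not (adjusted p = 0.0677).

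On the BAT side, 3 effectors narrowed. Elovl3, an elongase of very long fatty acids in brown fat, read 2.85, 3.18, 4.11 and 3.39 in B6 BAT and -2.44, 1.09, -5.28 and 0.30 in NZO BAT, where the reading of -5.28 was not well above background. In gWAT it read -1.90, -6.59, -5.81 and -3.85 in B6, the middle readings not well above background, and -2.69, -3.00, -1.68 and -4.26 in NZO. All NZO BAT arrays were below all B6 BAT arrays but scattered widely, and the gWAT groups overlapped. The BAT difference was -4.97 (SE 1.21, adjusted p = 0.0102) and the gap was 7.92 in B6 and 1.33 in NZO, where it was not called (adjusted p = 0.344). The interaction of Elovl3 was -6.59 (SE 1.71, adjusted p = 0.0166).

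Acot11, a thioesterase induced by cold in brown fat, read 6.90, 6.72, 6.74 and 7.06 in B6 BAT and 4.67, 6.59, 3.65 and 5.42 in NZO BAT, without overlap (interaction -2.73, SE 0.64, adjusted p = 0.00975). Pank1, an enzyme of coenzyme A synthesis, had a BAT difference of -0.62 (adjusted p = 0.00792) and an interaction of -0.84 (adjusted p = 0.0124), which was not called with the slide as a fixed block (adjusted p = 0.0596) or with all 24 arrays in the fit (adjusted p = 0.0518). The gap was still called with BAT higher in NZO for 15 of the 16 narrowed effectors, Elovl3 being the exception. The narrowed genes had gaps of 4.2 to 14.24 in B6 and of 1.33 to 7.34 in NZO. Of the 26 effectors, 24 had a called gap with BAT higher in each strain, against called gaps in either direction for 58.8% of all genes in B6 and 65.1% in NZO.

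The remaining 3 called effectors moved otherwise. Adrb3, the beta-3 adrenergic receptor of adipocytes, read 7.44, 7.83, 6.67 and 7.18 in B6 gWAT and 5.57, 5.27, 5.41 and 6.11 in NZO gWAT, against 6.96 to 7.32 in B6 BAT and 6.59 to 7.09 in NZO BAT. It was lower in NZO gWAT on every array (difference -1.69, 3.22-fold, adjusted p = 3.96e-05), and its gap went from -0.19 in B6 to 1.25 in NZO (interaction 1.44, SE 0.31, adjusted p = 0.00638; second probe 1.44). With all 24 arrays in the fit the Adrb3 interaction was not called (adjusted p = 0.26). Hspb7, a small heat shock protein, was not well above background on any NZO BAT array and at least 3.21-fold higher in B6 BAT, with readings of -1.0, -3.56, -2.99 and -2.45 in B6 BAT, -2.93, -4.33, -1.09 and -2.11 in B6 gWAT and -1.25, -1.21, -0.66 and -1.17 in NZO gWAT. Its interaction was called lower (adjusted p = 0.00957, or 0.0867 with the slide as a fixed block), but its size was not measured because of the dim NZO BAT readings. Hspb7 was also among the genes high in NZO muscle.

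Gpd2, the mitochondrial enzyme of the glycerol phosphate shuttle, had an interaction of 0.80 (adjusted p = 0.0419) with lower levels in NZO in both tissues (gWAT -1.54, BAT -0.74). This call was kept without NZO gWAT 012 or 003, B6 gWAT 015, or NZO BAT 009 or 003, and was lost when any 1 of the other 11 arrays was left out (adjusted p from 0.0579 to 0.0788). The 7 effectors not called were Dio2, Slc27a2, Slc25a20, Letmd1, Ckmt1, Acot2 and Eva1a. Dio2, the deiodinase that makes active thyroid hormone inside brown adipocytes, had an interaction of -1.93 with a large error (SE 0.86, adjusted p = 0.138), and it was called without B6 gWAT 009 (-2.45, adjusted p = 0.0466). Slc27a2, a fatty acid transporter, was the least precise (interaction -1.05, SE 1.29, adjusted p = 0.622).

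**Figure D1:**
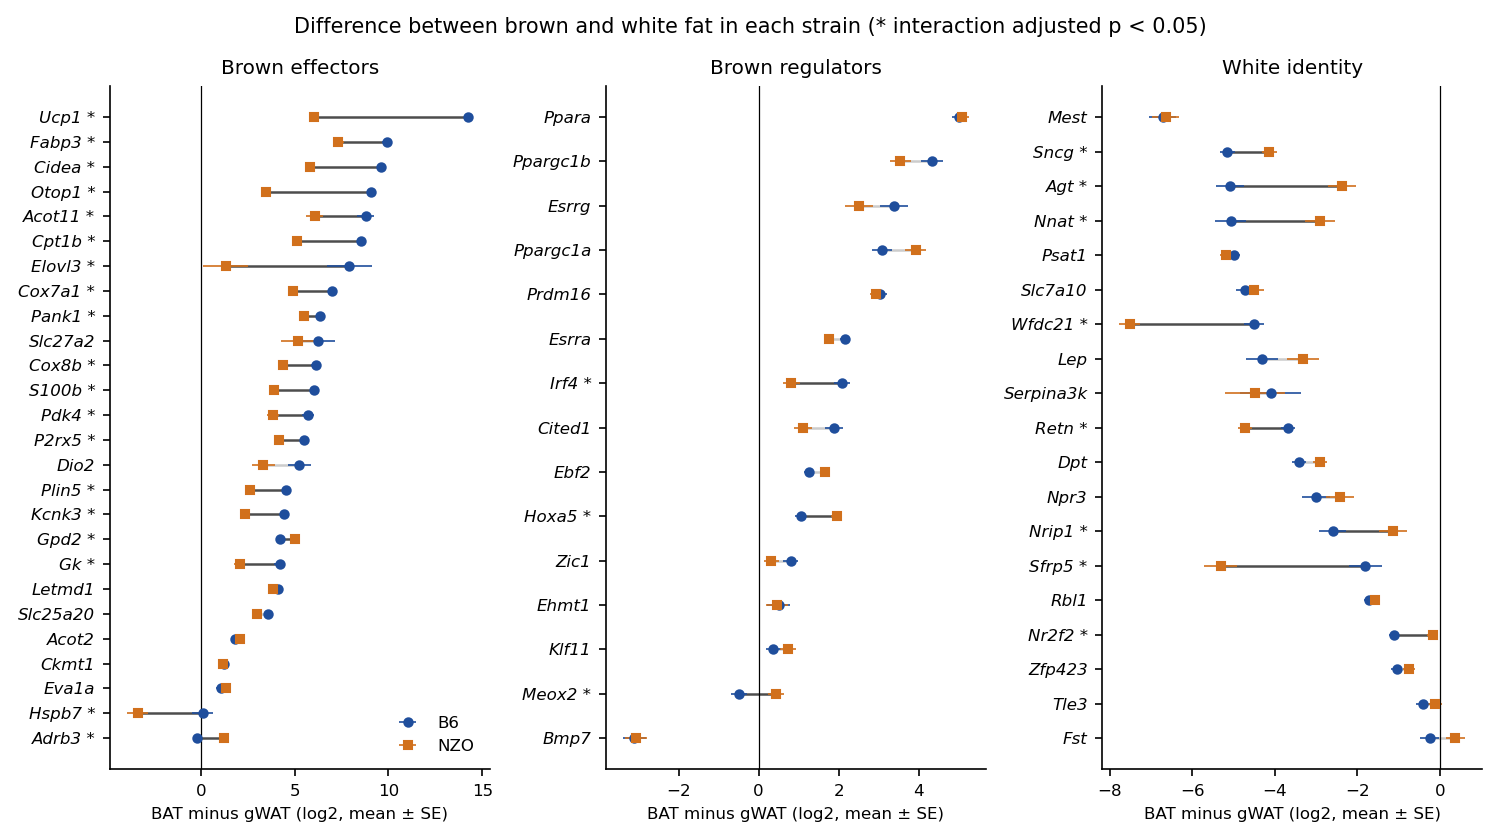
Gap between brown and white fat (BAT minus gWAT, log2, mean ± SE) in B6 (circles) and NZO (squares) for the tested brown effectors, brown regulators and white identity genes, with a star where the interaction was called. Most long bars among the effectors end nearer to 0 in NZO, as for Ucp1 (14.24 to 6.05), while the gap of the regulator Ppara is 5.0 and 5.07.

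The regulators of brown identity were called about as often as all genes, 3 of 15 against 17.9%. Of 18 listed, 15 were tested (Lhx8, Tbx15 and Zfp516 did not pass the background filter) and 12 were not called. The median interaction of the 15 was -0.04, close to the -0.03 of all genes. Prdm16, a master regulator of brown over muscle fate, read -2.21, -2.11, -2.10 and -2.34 in B6 gWAT and -1.81, -2.15, -1.87 and -1.64 in NZO gWAT, against 0.87, 1.12, 1.00 and 0.41 in B6 BAT and 1.44, 1.05, 0.78 and 1.03 in NZO BAT. The strains overlapped in both tissues, and the gap was 3.04 in B6 and 2.94 in NZO (interaction -0.10, SE 0.24, adjusted p = 0.814). For Ppara, the nuclear receptor that drives fatty acid oxidation, the gap was 5.0 and 5.07 (interaction 0.07, SE 0.24, adjusted p = 0.886). A missed threshold does not show equal gaps, and the SE of 0.24 limits what could be seen for either gene.

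Ppargc1a, the coactivator that induces mitochondrial biogenesis, read 0.04, -0.25, 0.19 and 0.27 in B6 gWAT and -0.88, -1.76, -1.20 and -0.75 in NZO gWAT. It was lower on every NZO gWAT array, the direction opposite to that of Ucp1 in the same samples, with an interaction of 0.84 that was not called (SE 0.36, adjusted p = 0.124). With array weights it was called (1.07, adjusted p = 0.0283). Its partner Ppargc1b had an interaction of -0.78 (adjusted p = 0.171) with a BAT difference of -1.21 (adjusted p = 0.00542). Ppargc1b was called with normexp background correction (-0.88, adjusted p = 0.0031) and with the deposited series table (-0.88, adjusted p = 0.0113). The replicate as a fixed block also gave a call (adjusted p = 0.0359), and the other alternatives did not. Ebf2, a factor that marks brown precursors, had an interaction of 0.41 (adjusted p = 0.148), and Zic1, a marker of classical brown fat, -0.48 (adjusted p = 0.234). Without 1 array, Ebf2 was called without NZO BAT 007 (0.53, adjusted p = 0.0316), Esrra, the oestrogen-related receptor alpha, without B6 gWAT 009 (-0.52, adjusted p = 0.0339) and Cited1, a transcriptional coactivator, without NZO gWAT 003 (-0.92, adjusted p = 0.0486). Ebf2 was also called with array weights and with quantile normalization. Cited1 was also called with median centring, with quantile normalization, and with the scan day or the replicate as a fixed block.

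The other 3 regulators were called. Irf4, which pairs with Ppargc1a in thermogenic transcription, read 1.73, 1.41, 2.35 and 1.17 in B6 BAT and 0.47, -0.09, 0.57 and 0.29 in NZO BAT, with -0.60 to -0.18 in B6 gWAT and -0.59 to -0.36 in NZO gWAT. It was lower on every NZO BAT array, and its gap narrowed from 2.08 to 0.81 (interaction -1.27, SE 0.30, adjusted p = 0.00956). Hoxa5, a positional gene, was lower in NZO in both tissues and more so in gWAT (BAT -0.90, gWAT -1.80), so its gap went from 1.05 to 1.95 (interaction 0.90, adjusted p = 0.00718). With median centring the Hoxa5 call was lost (0.67, adjusted p = 0.111). Meox2, a homeobox gene, had a small gap of -0.48 in B6 and 0.43 in NZO (interaction 0.91, adjusted p = 0.038), and this call was kept without NZO gWAT 012 or 003, B6 gWAT 015, NZO BAT 007 or B6 BAT 010 or 011 and lost when any 1 of the other 10 arrays was left out (adjusted p from 0.051 to 0.0789).

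Among factors that brown fat secretes, 7 of 10 were tested. Against 17.9% of all genes, 1 was called, Vegfa, the endothelial growth factor (0.53, adjusted p = 0.0367). That call was kept without NZO gWAT 012, B6 gWAT 011, NZO BAT 007 or B6 BAT 011 and lost when any 1 of the other 12 arrays was left out (adjusted p from 0.0516 to 0.0766), and another Vegfa probe gave -0.29. Nrg4, a growth factor released by brown adipocytes, depended on the probe. The brightest probe gave an interaction of 0.17 (adjusted p = 0.685), another 2.0 (adjusted p = 0.00574, gWAT difference -2.08) and the last 0 (adjusted p = 0.993). Of 5 beige adipocyte markers tested, out of 7 listed, none was called (median interaction -0.08). The share of all genes was 17.9%, at which so short a list could hold none.

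Genes of white identity were split between narrowing, widening and no call. Of 24 listed, 19 were tested (Gpr151, Hoxc8, Hoxc9, Hoxc10 and Tcf21 were not). Of these 5 narrowed, against 2.9% of all genes for a narrower gap with gWAT higher in B6. Another 3 widened, against 11.5% of all genes called with a gap not smaller in NZO. The median interaction was 0.3, and the gap had gWAT called higher for 17 of the 19 in B6 and 16 in NZO. Of the 5 that narrowed, Nr2f2 alone had no called gap in NZO (adjusted p = 0.229).

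Agt encodes angiotensinogen, which white adipocytes secrete. It read 3.84, 4.12, 4.26 and 3.71 in B6 gWAT and 0.66, 0.16, 0.37 and 1.08 in NZO gWAT. In BAT it read -1.69, -1.05, -0.70 and -0.99 in B6 and -2.29, -1.58, -2.60 and -0.78 in NZO. The NZO gWAT arrays were all far below the B6 ones, and the BAT groups overlapped. The gWAT difference of Agt was -3.41 (10.7-fold, adjusted p = 2.17e-06) and its gap shrank from -5.09 to -2.38 (interaction 2.71, SE 0.47, adjusted p = 0.00149).

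Nr2f2, an orphan nuclear receptor of white adipocytes and veins, read 1.43, 1.59, 1.88 and 1.75 in B6 gWAT and 0.81, 0.96, 1.08 and 0.86 in NZO gWAT. The NZO readings were all below the B6 ones. Its gap went from -1.11 to -0.18 (interaction 0.92, SE 0.18, adjusted p = 0.00338), and with median centring it was not called (0.70, adjusted p = 0.0774). Nrip1, a corepressor that holds back oxidative genes, had a gap of -2.60 in B6 and -1.14 in NZO (interaction 1.45, adjusted p = 0.0421). The Nrip1 call was kept without B6 gWAT 011 or 009, NZO BAT 011 or B6 BAT 011 and lost when any 1 of the other 12 arrays was left out (adjusted p from 0.0505 to 0.0843).

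Nnat and Sncg narrowed from the BAT side, where both were higher in NZO. Nnat, an imprinted gene of neuronal and adipose membranes, read 0.64, 1.12, 0.57 and -0.37 in B6 BAT and 2.36, 1.49, 3.25 and 1.70 in NZO BAT, without overlap (interaction 2.17, SE 0.52, adjusted p = 0.0112, second probe 1.99). Sncg, gamma-synuclein, which is abundant in white adipocytes, read 1.91, 2.30, 2.20 and 2.44 in B6 BAT and 3.15, 3.51, 3.93 and 3.56 in NZO BAT, also without overlap (interaction 1.02, adjusted p = 0.0141). The Sncg gap was -5.15 in B6 and -4.13 in NZO, so gWAT remained far higher. With all 24 arrays in the fit neither was called (Nnat adjusted p = 0.196, Sncg 0.505), and Sncg was not called with median centring (0.102).

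The 3 widening genes were Sfrp5, Retn and Wfdc21. Sfrp5, a secreted Wnt inhibitor of white adipocytes, read 2.08, 0.40, 2.08 and 2.42 in B6 gWAT and 5.22, 4.41, 4.34 and 5.70 in NZO gWAT, with -0.56 to 0.36 in B6 BAT and -0.63 to -0.01 in NZO BAT. All NZO gWAT arrays exceeded all B6 ones, and the gap grew in size from -1.81 to -5.31 (interaction -3.49, SE 0.57, adjusted p = 0.000887). Retn, resistin, was lower in NZO in both tissues and more so in BAT (gWAT -0.52, BAT -1.55, interaction -1.03, adjusted p = 0.01), and with all 24 arrays in the fit it was not called (adjusted p = 0.433). Wfdc21 also widened (interaction -3.01, adjusted p = 7.39e-05), but it was well above background on 1 of 4 NZO BAT arrays, and with normexp background correction its interaction was 0.15 (adjusted p = 0.721).

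Lep, leptin, was higher in NZO in both tissues (gWAT 1.24, BAT 2.23) with an interaction of 1.00 that was not called (SE 0.55, adjusted p = 0.23). In B6 BAT it read -0.46, -0.28, -0.55 and 1.37, and without the array that read 1.37 (B6 BAT 009) the interaction was 1.45 (adjusted p = 0.0284). Dpt, dermatopontin, was called without B6 BAT 010 (0.70, adjusted p = 0.0256). The 20 genes shared by brown and white adipocytes had a median interaction of 0.00, and 2 were called, both lower, near the 9.25% of all genes called lower. These were Cebpb, an early adipogenic factor (-1.26, SE 0.19, adjusted p = 0.000562), and Gpd1, the cytosolic enzyme of the glycerol phosphate shuttle (-0.72, adjusted p = 0.0284). The Gpd1 call was kept without NZO gWAT 012 or 003, B6 gWAT 009, NZO BAT 011 or 007, or B6 BAT 010 or 011 and lost when any 1 of the other 9 arrays was left out (adjusted p from 0.0514 to 0.0608). Without NZO gWAT 007, Adipoq (0.67, adjusted p = 0.0488) and Plin1 (0.60, adjusted p = 0.0152) were called.

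**Figure D2:**
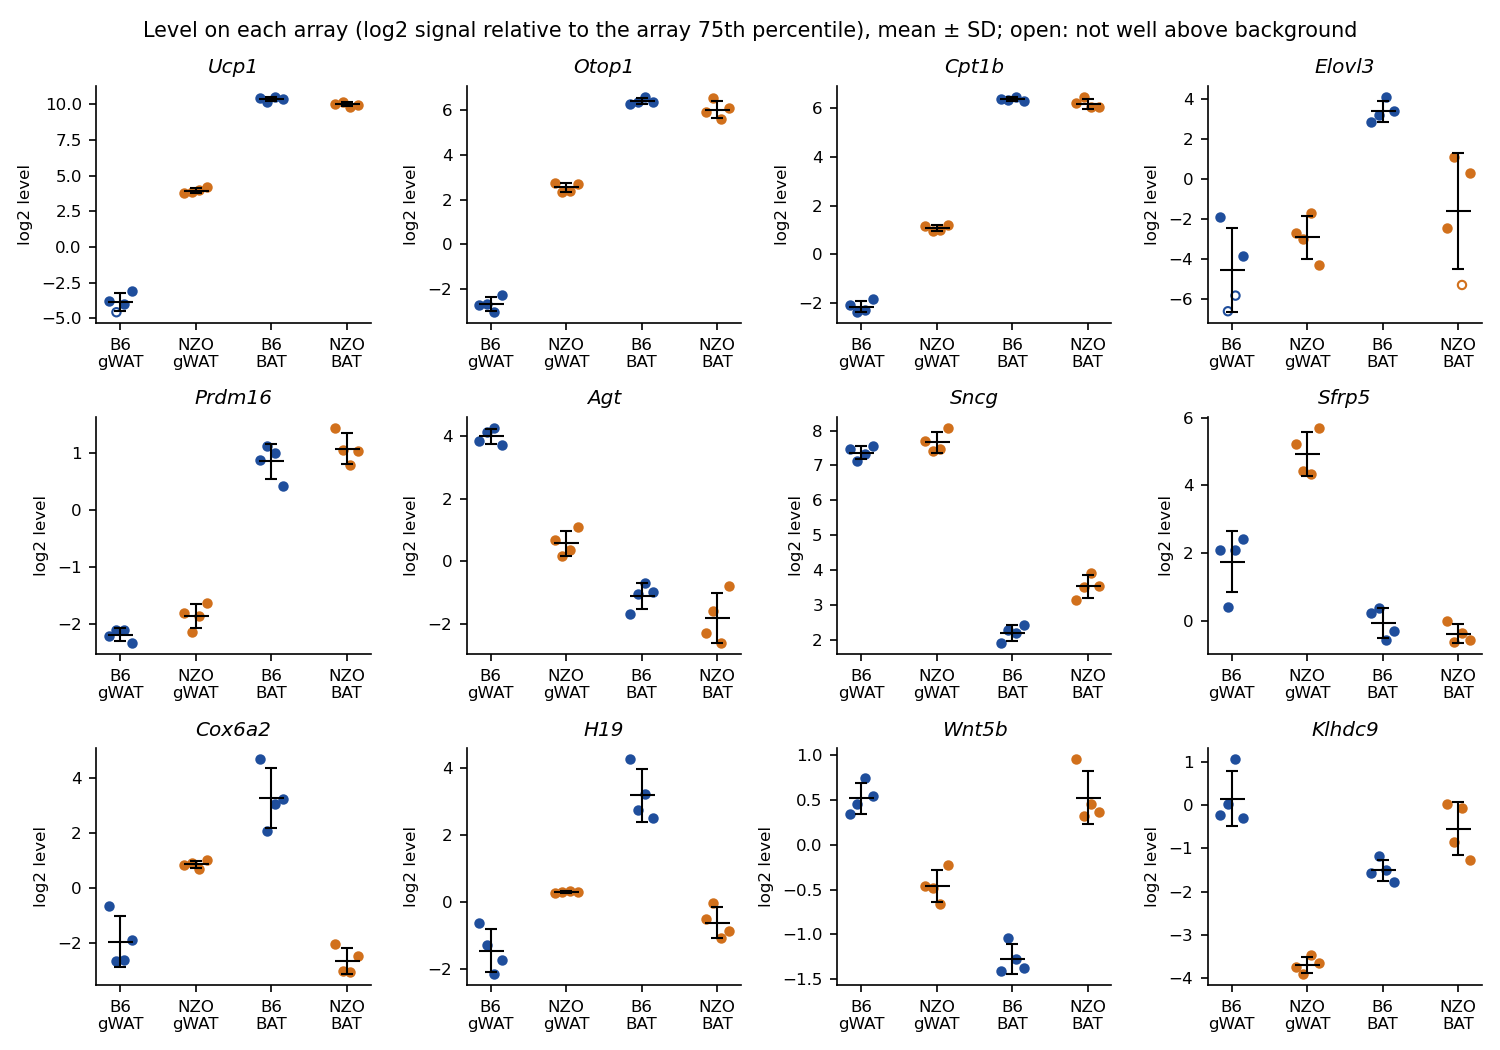
Level of 12 genes on each of the 16 arrays (log2 signal over the array's 75th percentile), with B6 in blue and NZO in orange, lines at the mean ± SD of 4 arrays, and open points for readings not well above background. Ucp1, Otop1 and Cpt1b differ between strains in gWAT. In BAT the strains overlap for Otop1 and Cpt1b and only touch for Ucp1, which is slightly lower in NZO. Elovl3 falls in NZO BAT, and Cox6a2, H19, Wnt5b and Klhdc9 change in opposite directions in the tissues.

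Markers of other cells differed between the groups. The summed level of 20 skeletal muscle fibre markers was 8.47 to 10.36 (log2) in B6 BAT, 4.37 to 5.10 in NZO BAT, 4.68 to 6.09 in B6 gWAT and 4.24 to 4.86 in NZO gWAT. Of the 16 tested, 15 had a lower interaction (median -5.7), against 9.25% of all genes. The summed level of 15 macrophage markers was 8.26 to 8.58 in NZO gWAT, 6.75 to 6.99 in B6 gWAT, 5.23 to 5.49 in NZO BAT and 5.19 to 5.45 in B6 BAT. The 5 B cell markers summed to 2.06 to 4.53 in NZO gWAT, with the highest value on NZO gWAT 012, and to 0.66 to 1.04 in B6 gWAT. They were higher in NZO BAT too, at 1.69 to 2.05 against 0.93 to 1.13 in B6 BAT. The shared adipocyte genes summed to 12.21 to 12.72 in NZO gWAT and 12.24 to 12.56 in B6 gWAT, and to 12.73 to 12.85 and 12.79 to 12.98 in BAT, so the strains overlapped within a tissue. Whether the muscle and macrophage transcripts took part in the results on identity genes was not tested. None of the 16 narrowed effectors had a level in NZO muscle 4-fold or more above NZO BAT, while Agt, among the 5 narrowed white genes, did. Among all 19898 genes tested, 1029 did. The measure compares muscle with BAT, where most of these effectors are high, so it cannot decide whether muscle transcripts took part. Cox7a1, for example, had a mean of 9.18 in NZO muscle and 9.85 in NZO BAT, and was not counted.

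**Figure D3:**
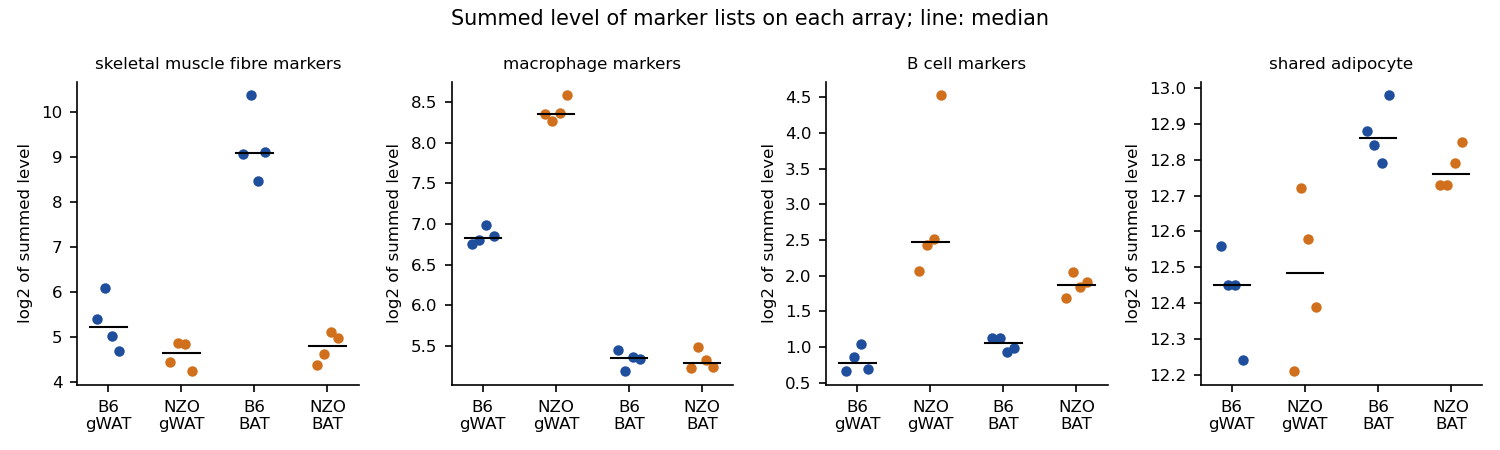
Summed level of 4 marker lists on each array (log2 of the sum of linear levels; B6 blue, NZO orange; line, median of 4 arrays). Skeletal muscle markers are high in B6 BAT alone, macrophage markers are highest in NZO gWAT, and the sums of the shared adipocyte genes differ by less than 1 between all arrays.

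Genes with opposite strain effects were called for the interaction and in both tissues, with different signs. There were 254 (1.28%), of which 116 (0.583%) were higher in NZO gWAT and lower in NZO BAT, and 138 (0.694%) were lower in NZO gWAT and higher in NZO BAT. By comparison, 1604 genes (8.06%) were called in both tissues with the same sign. Of the 254, 224 were well above background on all 16 arrays, and 198 had no overlap between strains in either tissue. The 254 were selected by calls in both tissues, so the count without overlap follows largely from that selection. Of all genes, 34.8% had no overlap in gWAT and 21.5% none in BAT. With median centring 36 genes in place of 138 were higher in NZO BAT, and without NZO BAT 009, NZO BAT 003 or B6 BAT 015 they numbered 71, 74 and 80. Opposite genes were 156 without NZO BAT 009 and 164 without NZO BAT 003.

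With NZO gWAT higher, genes were ranked by the smaller of their strain differences, among those well above background on all 16 arrays. Cox6a2, in the leading 8, encodes the heart and muscle isoform of a cytochrome c oxidase subunit, also present in brown fat (probe at chr7:135349160-135349219, mm9). It read -0.64, -2.64, -2.61 and -1.90 in B6 gWAT and 0.84, 0.90, 0.68 and 1.00 in NZO gWAT. In BAT it read 4.69, 2.05, 3.05 and 3.23 in B6 and -2.05, -3.03, -3.05 and -2.49 in NZO. The strains did not overlap in either tissue and changed places between them, so the gap was 5.20 in B6 and -3.51 in NZO (gWAT 2.80, BAT -5.91, interaction -8.71, SE 0.69, adjusted p = 2.64e-06). The NZO muscle arrays held Cox6a2 at 12.19 above NZO BAT, and B6 BAT had the high muscle marker sum given above, and its part in this result was not tested.

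H19, an imprinted long non-coding RNA, read -0.64, -1.30, -2.16 and -1.72 in B6 gWAT and 0.26, 0.31, 0.33 and 0.29 in NZO gWAT, against 4.28, 2.74, 3.23 and 2.51 in B6 BAT and -0.52, -0.02, -1.07 and -0.88 in NZO BAT. The strains did not overlap in either tissue (interaction -5.56, SE 0.52, adjusted p = 9.35e-06), and the other 5 probes of H19 gave the same signs. Got1, the cytosolic aspartate aminotransferase, read 0.48, 0.32, 0.91 and 0.47 in B6 gWAT and 2.15, 2.21, 2.20 and 1.86 in NZO gWAT, with 2.89 to 3.06 in B6 BAT and 1.08 to 2.60 in NZO BAT (interaction -2.86, adjusted p = 7.79e-05). NZO muscle exceeded NZO BAT by 9.63 for H19 and by 5.58 for Got1. Of the 116 genes, 36 had a level in NZO muscle 4-fold or more above NZO BAT, and of the 138 genes 3 did. Among all 19898 genes tested, 1029 did, but this measure shares the NZO BAT arrays with the calls.

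Tnfaip2 (gWAT 1.48, BAT -1.16) and Lbx1, of the same leading 8, were also high in muscle. NZO muscle exceeded NZO BAT by 6.41 for Tnfaip2 and by 6.64 for Lbx1. The opposite call of Tnfaip2 was lost with the slide as a fixed block. The rest of the leading 8, Fbxo2, Fhdc1 and Aspg, were not high in muscle. Fbxo2, an F-box protein of glycoprotein disposal, read -2.29, -2.07, -1.56 and -2.16 in B6 gWAT, 0.01, -0.21, 0.17 and 0.12 in NZO gWAT, -0.58, -0.24, 0.23 and 0.09 in B6 BAT and -1.11, -1.14, -0.91 and -1.23 in NZO BAT. The strains were apart in both tissues, and the higher tissue changed with the strain (gap 1.90 in B6 and -1.12 in NZO, interaction -3.01, SE 0.26, adjusted p = 5.26e-06). Fhdc1, a formin-type protein, had a gWAT difference of 1.1 and a BAT difference of -1.72 (adjusted p of the interaction 9.23e-05). Aspg, an asparaginase gene far higher in BAT, had differences of 2.28 in gWAT and -1.05 in BAT, so its gap narrowed from 7.29 to 3.95. The levels in NZO muscle minus NZO BAT were -0.11 for Fbxo2, -2.18 for Fhdc1 and -6.52 for Aspg. Cox6a2, H19, Got1, Fbxo2 and Fhdc1 kept opposite calls in every alternative in which they were tested and with each array left out, while Lbx1, a muscle homeobox gene also among the leading 8, kept them in 7 of 16 leave-outs.

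In the other orientation Wnt5b, a Wnt ligand (probe at chr6:119382550-119382609, mm9), read 0.34, 0.45, 0.75 and 0.54 in B6 gWAT and -0.46, -0.48, -0.66 and -0.23 in NZO gWAT. In BAT it read -1.41, -1.04, -1.28 and -1.38 in B6 and 0.96, 0.32, 0.46 and 0.37 in NZO. Neither tissue had overlapping strains, and gWAT was higher than BAT in B6 and lower in NZO (gap -1.80 and 0.99, interaction 2.79, SE 0.21, adjusted p = 1.75e-06). The opposite call of Wnt5b held in all 16 alternatives and 16 leave-outs. Sfrp1, a secreted Wnt inhibitor, changed in the same orientation (gWAT -1.04, BAT 1.26, interaction 2.30, adjusted p = 0.00275). Its opposite call was lost with median centring, normexp, the slide as a fixed block and the series table, and without NZO gWAT 003 or B6 gWAT 015.

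Phgdh, the first enzyme of serine synthesis, had a gWAT difference of -0.83 and a BAT difference of 0.99, and all 3 of its probes gave these signs (interaction 1.82, SE 0.31, adjusted p = 0.00133). Its interaction was not called with all 24 arrays in the fit (adjusted p = 0.168). Neat1, the long non-coding RNA of paraspeckles, read 8.12, 8.04, 7.65 and 8.06 in B6 gWAT and 5.75, 6.69, 6.89 and 5.93 in NZO gWAT, with 6.19 to 6.86 in B6 BAT and 7.03 to 7.70 in NZO BAT (interaction 2.53, adjusted p = 0.000227). The opposite strain effects of Neat1 were not called without NZO BAT 011 or 003 or B6 BAT 015 or 009, with quantile normalization or with the slide as a fixed block. Acsm5, an acyl-CoA synthetase (interaction 2.50), Mkrn3, an imprinted gene (2.16), and Rtl6, a gene of retrotransposon origin (1.72), completed the leading 8 with Klhdc9, and another Rtl6 probe gave 0.04. The opposite calls of Acsm5 and Mkrn3 were lost with normexp, the slide as a fixed block and the series table, and that of Phgdh with median centring.

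Klhdc9, a kelch domain gene, had the highest interaction together with Inmt among genes with a symbol that were well above background on all 16 arrays. It read -0.22, 0.03, 1.08 and -0.29 in B6 gWAT and -3.76, -3.92, -3.47 and -3.66 in NZO gWAT, against -1.57, -1.18, -1.51 and -1.79 in B6 BAT and 0.02, -0.84, -0.07 and -1.27 in NZO BAT. The NZO arrays were far below B6 in gWAT, and the BAT groups overlapped slightly (interaction 4.83, SE 0.44, adjusted p = 7.53e-06). The BAT difference of Klhdc9 was 0.97 (adjusted p = 0.0445), and its call with opposite strain effects was kept in 6 of 16 leave-outs and 9 of 16 alternatives. The gaps, -1.67 in B6 and 3.16 in NZO, kept opposite calls in all of them.

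**Figure D4:**
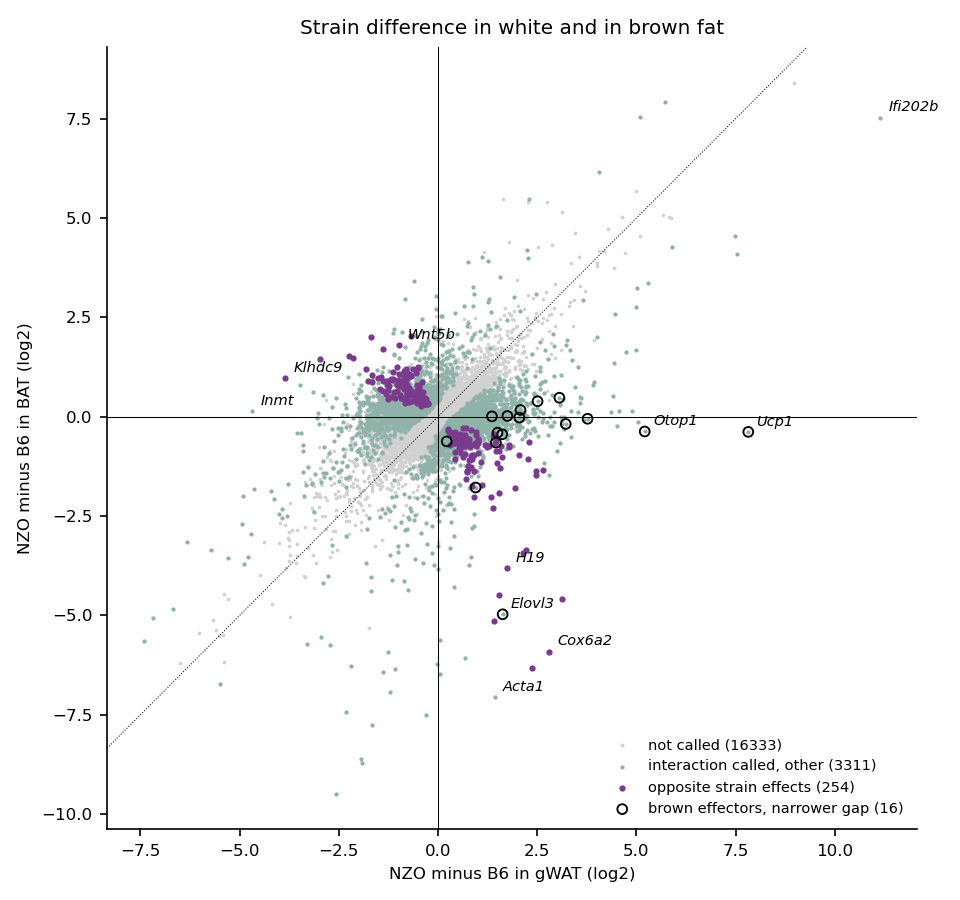
Strain difference (NZO minus B6, log2) in gWAT (horizontal) and BAT (vertical) for the 19898 tested genes. Most narrowed effectors (rings) lie to the right near 0 on the vertical axis, as Ucp1 does at 7.82 and -0.38, and the 254 genes with opposite effects (purple) fill the upper left and the lower right.

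The tissue that was higher changed with the strain for 238 genes (1.2%), with BAT higher in B6 for 113 (0.568%) and BAT higher in NZO for 125 (0.628%). Inmt, an indolethylamine methyltransferase, read 2.63, 2.37, 4.0 and 2.61 in B6 gWAT and -2.77, -1.13, -1.34 and -1.87 in NZO gWAT, with -0.52 to 0.12 in B6 BAT and -0.63 to 0.52 in NZO BAT. It fell in NZO gWAT alone (-4.68, 25.6-fold, adjusted p = 3.84e-07), which turned its gap from -3.11 to 1.72. Gpx8, a peroxidase of the endoplasmic reticulum, read 4.74, 4.83, 4.92 and 4.17 in B6 BAT and 0.60, 0.52, 0.70 and 0.36 in NZO BAT, with 3.22 to 3.37 in B6 gWAT and 2.23 to 2.62 in NZO gWAT. Gpx8 was thus lower in NZO in both tissues, 17.4-fold in BAT, and its gap turned from 1.39 to -1.88 (interaction -3.27, SE 0.21, adjusted p = 6.76e-07). Kcnj15, a potassium channel gene, turned from -1.58 to 1.11, but not with median centring. Acta1, skeletal actin, and Myom1, a sarcomere protein, also turned, beside the muscle markers in B6 BAT, and so did Tfr2, a transferrin receptor gene, whose call was kept in 11 of 16 leave-outs and 10 of 16 alternatives. Myom1 lost its call with normexp and with the series table.

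Among genes well above background on all 16 arrays, several other high interactions came with low levels in NZO gWAT. Dennd2d, a Rab regulator gene, read 1.24, 1.5, 1.89 and 1.71 in B6 gWAT and -1.62, -1.83, -2.16 and -1.89 in NZO gWAT (interaction 3.05, SE 0.26, adjusted p = 5.69e-06). Ptgds, a prostaglandin synthase gene, had an interaction of 4.27 with B6 gWAT readings from -2.67 to 2.80 (SE 1.11, adjusted p = 0.0165), not called with array weights (adjusted p = 0.076). Med12l had 3.12 and Prrt4 2.75, the second from a rise in NZO BAT, and Acsbg1, at 3.43 with another probe at -0.14, lost its call when any 1 of 11 arrays was left out. Prrt4 was not called with the slide as a fixed block (adjusted p = 0.0794). On the same condition the 8 lowest interactions were of Otop1 and of muscle genes, among them Cox6a2, Acta1 and Tnni2.

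Several genes were well above background in 1 strain only within a tissue. The interferon-inducible gene Ifi202b exceeded B6 by at least 530-fold in NZO gWAT and by at least 38.9-fold in NZO BAT, so its interaction rested on dim B6 values. Ttc8, a Bardet-Biedl gene, was at least 45.5-fold higher in B6 gWAT, with B6 gWAT readings of 0.71 to 0.76. It was lower in NZO BAT as well, with a difference of -5.84 between NZO BAT 007 and B6 BAT 015, which shared a slide. In BAT, Casq1, a muscle calcium store protein, was at least 27.2-fold higher in B6. Tbx5, a T-box factor, was at least 10.1-fold higher in NZO gWAT. For such genes only the bound, and not the size of the interaction, was measured.

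Pathways around the brown programme had smaller median interactions than the effectors, -0.26 for signalling, -0.12 for respiration and -0.16 for fatty acid oxidation. In the adrenergic and natriuretic list, 3 of 14 tested were called, all lower, against 9.25% of all genes called lower. These were Rgs2, which shortens G protein signals (-1.65), Pde4d, a phosphodiesterase that breaks down cAMP (-1.62, SE 0.27, adjusted p = 0.00106), and Adcy3, an adenylyl cyclase that makes it (-1.30, SE 0.19, adjusted p = 0.000404). Pde4d and Adcy3 were both higher in NZO gWAT and lower in NZO BAT (gWAT 0.98 and 0.42, BAT -0.64 and -0.88). The Rgs2 call was lost where probes of a gene were averaged (adjusted p = 0.0514).

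Of 30 respiratory chain genes 1 was called, Cox6b1 (-0.50, adjusted p = 0.0343), and that call was lost when any 1 of 10 arrays was left out. The median gap of the chain was 2.31 in B6 and 2.21 in NZO. With quantile normalization 7 members were called higher, and no direction is given for the chain. Among 22 genes of fatty acid oxidation, 3 were lower (9.25% of all genes), which were Hadha (-0.83) and Hadhb (-0.80), the subunits of the trifunctional protein, and Cpt1a (-0.69), the liver-type carnitine enzyme, the last not when any 1 of 9 arrays was left out. Hadha was higher in NZO gWAT (0.40) and lower in NZO BAT (-0.43). Hadhb was not called with the slide as a fixed block (adjusted p = 0.0731).

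In de novo lipogenesis, 3 of 17 were called, a share near the 17.9% of all genes. Fads1, a desaturase, read 2.57, 2.19, 2.51 and 2.54 in B6 gWAT and 0.92, 0.91, 1.01 and 0.82 in NZO gWAT, with no difference called in BAT (interaction 1.55, SE 0.20, adjusted p = 0.000142). Insig1, a brake on sterol synthesis, was lower in NZO BAT (interaction -1.25, adjusted p = 0.0137). Its interaction was not called with all 24 arrays in the fit (adjusted p = 0.0538) or with the slide as a fixed block (adjusted p = 0.0826). Thrsp, a lipogenic regulator, was called (1.14, adjusted p = 0.0492) but not when any 1 of 14 arrays was left out.

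In glycolysis 10 of 18 were lower, against 9.25% of all genes, and none higher (median -0.80). Pgam2 (-4.10) and Eno3 (-1.90), the muscle isoforms, led, followed by Pkm (-1.20) and Gpi1 (-1.20, 3 probes from -1.26 to -1.14). These fell in NZO BAT, where the muscle marker sum fell too, and the part of muscle transcripts was not tested. Gpi1 also rose in NZO gWAT (gWAT 0.54, BAT -0.67), so its strain effects were called opposite. Pgam2 was lower in NZO gWAT too (-2.18), where it was well above background on 2 of 4 NZO arrays.

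Lists that rose in NZO gWAT gave lower interactions beside its high macrophage sum. Of 14 macrophage markers 10 were lower (median -1.91), against 9.25% of all genes, which is also the background of the lists that follow. Trem2, a lipid-sensing receptor, read 0.76, 1.12, 1.14 and 0.77 in B6 gWAT and 5.27, 5.67, 5.33 and 5.27 in NZO gWAT, and in BAT it rose less, from -3.14 to -2.39 in B6 to -1.58 to -1.17 in NZO (interaction -3.07, SE 0.23, adjusted p = 1.75e-06). Gpnmb, a lysosomal glycoprotein of lipid-laden macrophages, had an interaction of -5.18 (SE 0.36, adjusted p = 8.79e-07). Itgax (-3.11) and Mpeg1 (-2.92) followed.

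Of 14 genes of the unfolded protein response 6 were lower, led by Atf3 (-3.29), Sdf2l1 (-2.08) and the chaperone Hspa5 (-0.87). A further member, Dnajb9 (-0.84, adjusted p = 0.0499), lost its call when any 1 of 12 arrays was left out. Atf3, a stress-induced factor, read -0.67, -0.46, -0.19 and -0.33 in B6 gWAT and 2.47, 3.09, 2.85 and 2.45 in NZO gWAT and overlapped between strains in BAT. Of 21 matrix genes 9 were lower, among them Timp1, a protease inhibitor (-3.11), and Col6a2 and Col6a1, collagen VI chains (-1.70 and -1.24). Of 9 inflammatory mediators tested the chemokine genes Ccl8 (-2.41), Ccl2 (-2.27) and Ccl7 (-2.04) were lower, Ccl7 not when any 1 of 6 arrays was left out, and none of the 3 was called with all 24 arrays in the fit. The part of macrophages in these lists was not tested.

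Cell cycle genes rose in both tissues of NZO (16 of 17 tested in gWAT and 14 in BAT, against 19.1% and 8% of all genes), and 4 had a lower interaction, among them Mcm5 (-0.80), Mcm2 (-0.74) and Mcm6 (-0.60), helicase subunits of DNA replication. With all 24 arrays in the fit Mcm5 and Mcm6 were not called (adjusted p = 0.268 and 0.188). Mcm6 was also not called with the replicate as a fixed block (adjusted p = 0.0608). Cdk1 was called higher (adjusted p = 0.0487), but it was not well above background on any B6 BAT array, the call was lost when any 1 of 11 arrays was left out, and the sign turned with normexp (-0.43), so no direction is given for it. Of 6 tested in the fibroblast list, Thy1 (-1.11) and Ly6a (-1.09) were lower, against 9.25% of all genes. Dlk1, a preadipocyte factor, was higher (1.60, not with median centring, adjusted p = 0.0539), against 8.67% of all genes. In the Schwann cell list Sox10, a neural crest factor, was higher (1.36), with a fall in NZO gWAT (-1.53). Of 4 B cell markers tested 1 was lower, Cd79a, a B cell receptor chain (-1.81), against 9.25% of all genes. Nothing was called among the markers tested of T cells (6), mast cells (5), endothelium (9), mural cells (7), liver (7), red cells (4) or mesothelium (1). At the 17.9% of all genes called, lists this short would hold few calls or none. Of 5 slow muscle markers Myl3 (-2.47) and Atp2a2 (-0.60) were lower (9.25% of all genes) and Casq2 (1.51) higher (8.67%). The call of Atp2a2 was lost when any 1 of 13 arrays was left out, that of Casq2 with any of 10 and that of Myl3 without B6 gWAT 015 (adjusted p = 0.051).

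**Figure D5:**
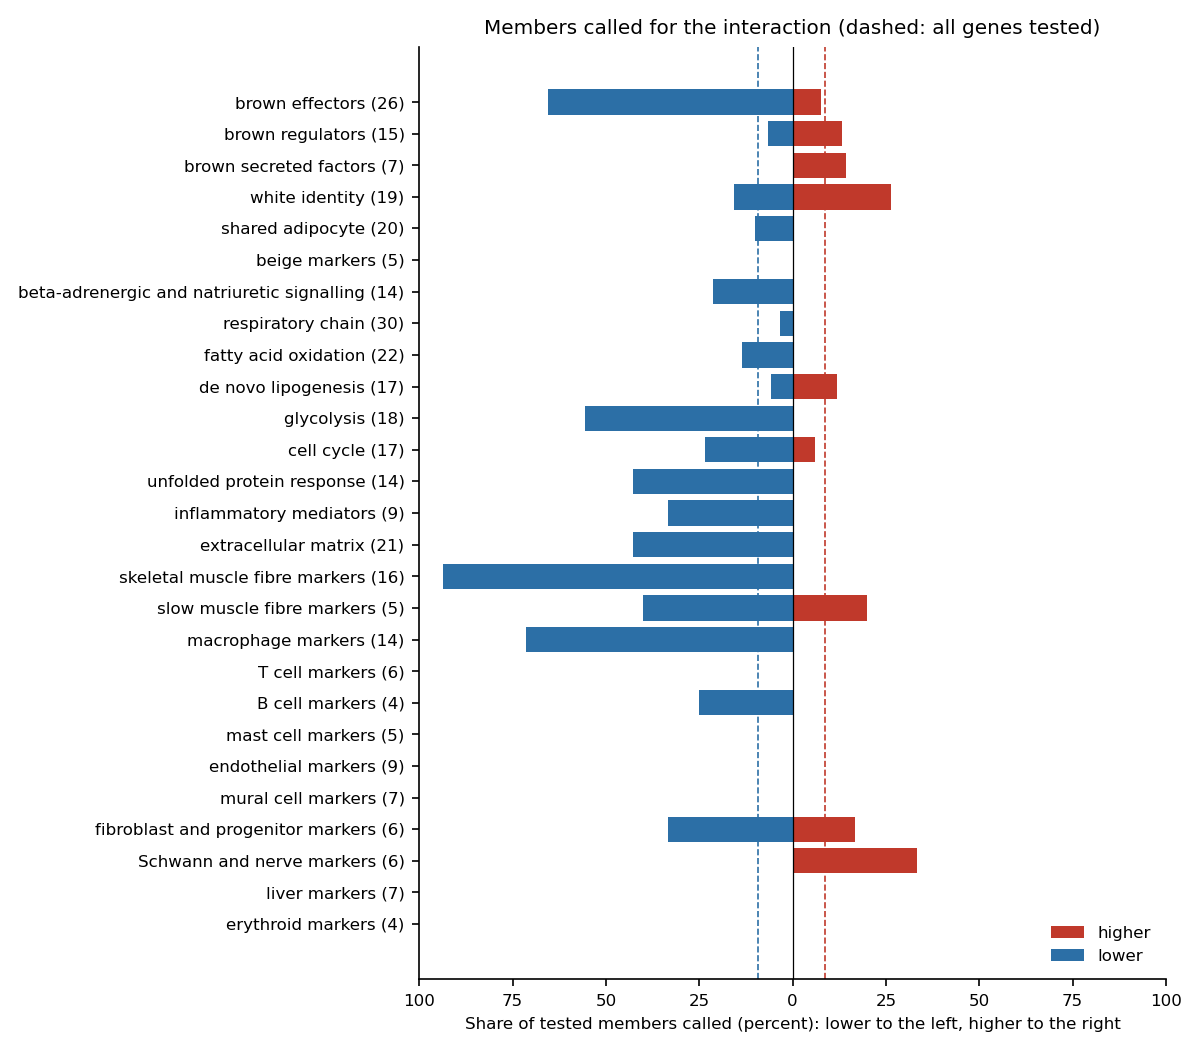
Percent of tested members of each list called lower (left, blue) or higher (right, red) for the interaction, with the number tested in brackets and dashed lines at the shares of all genes tested (9.25% lower and 8.67% higher). Brown effectors, glycolysis, muscle and macrophage markers reach far past the line to the left, and brown regulators and the respiratory chain do not.

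Promoter windows from RefSeq (GRCm38.p6, 250 bases before to 50 after the start) were found for 20 of the 26 effectors and for 11 of the 16 that narrowed. They were searched on both strands for the direct repeat bound by PPAR with RXR, for TCAAGGTCA, of oestrogen-related receptors, for the EBF palindrome, and for the cAMP response element TGACGTCA and its looser form TGACGNCA, which includes it. None of the 11 held any of the 5. Among the 20, Dio2 held TGACGTCA and hence TGACGNCA, which occur in 1.79% and 3.21% of 32851 such windows. The PPAR, oestrogen-related and EBF motifs occur in 0.0396%, 0.423% and 0.904%. No match says only that these letters are not in this window.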

How the data were processed

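RNA of 24 samples was hybridised to single-colour Agilent arrays. The deposited scanner tables hold spot intensity, from Agilent Feature Extraction 11.0.1.1 per the file headers (the submitters' processing notes name 9.1), background-subtracted and not scaled between arrays. The deposited series table, also an intensity, was an alternative. Of 59305 spots per array, at most 18 probes on a fat array and 88 on a muscle array were dropped as outliers. Signals were divided by the array's 75th percentile and put on log2, a scale not used in the deposited intensity tables. Each gene was represented by its brightest passing probe on average. One mean per group was fitted with limma 3.58.1 (lmFit, eBayes) in R 4.3.3, tested on simulated data. A bound (at least N-fold) sets the brighter mean against the dimmer group's mean, where each array gave its own signal or its lowest signal well above background, whichever was higher. In their deviations from group means, same-numbered BAT and gWAT samples correlated at 0.125, 0.275 and 0.344 in NZO and 0.448, -0.12, -0.053 and 0.313 in B6. Samples of different numbers ran from -0.412 to 0.152 in NZO and from -0.463 to 0.273 in B6. Some same-numbered values thus exceeded this range and others did not, which does not settle whether equal numbers are pairs. The labels do not say so either, and the numbers were not taken as pairs. Members and lists were chosen with earlier results of these data known. Named genes were identity list members, 4 leading called members and any against the majority in other lists, the 8 highest and 8 lowest interactions, the 8 and 5 leading opposite genes per orientation, and the 3 largest bounds, of which examples are given. Alternatives were scaling, background correction, probe filters, probe averaging, slide, scan day and replicate blocks, all 24 arrays, array weights, the series table and each array left out.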

Additional observations from a re-analysis of the deposited data

Results flagged for a closer look

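The interaction was a test of whether the strain effect differed between tissues, and it was called for 3565 genes, of which 254 had opposite strain effects and 238 opposite tissue gaps.

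In 14 of 248 checks of a group of 4 arrays (7 of 132 for gene levels and 7 of 116 for list sums), 1 array stood apart from the others by Dixon's criterion, and chance alone sets about 1 group in 20 apart. The genes checked were chosen after their values were seen. In B6 gWAT, array 011 stood apart for Fads1 (2.19) and Sfrp5 (0.40), and array 015 for Gpnmb (-0.71), Inmt (4.0) and Neat1 (7.65). In NZO gWAT, array 003 stood apart for Hspb7 (-0.66), and in B6 BAT, array 009 for Lep (1.37). Among summed lists, B6 gWAT 009 stood apart for Schwann and nerve markers (5.68), B6 gWAT 010 for epididymis markers (-3.63) and B6 gWAT 011 for matrix genes (11.15). In NZO BAT, array 011 stood apart for beige markers (4.81) and array 007 for erythroid markers (8.52). In B6 BAT, array 011 stood apart for glycolysis (12.43) and array 010 for liver markers (4.15).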

How the results depend on the processing

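Narrowed effectors numbered 14 to 17 in every setting (16 to 17 with 1 array left out). Median centring gave 662 genes higher, 149 with opposite strain effects (36 higher in NZO BAT), 158 opposite gaps, 2 narrowed regulators (BAT higher in B6) and 2 narrowed white genes. The slide as a fixed block gave 2138 calls, 875 higher, 78 opposite (49 higher in NZO gWAT, 29 in NZO BAT) and 113 opposite gaps. No slide held all 4 groups. Array weights gave 2908 higher, 582 opposite (238 and 344) and 418 opposite gaps, and no probe filter gave 149 opposite (66 higher in NZO BAT). Regulators with BAT higher in B6 and a narrower gap, 1 as reported (Irf4), were 2 with quantile normalization, normexp, a filter on 1 of 4 groups, scan day or the series table. All 24 arrays gave 3 narrowed white genes. The replicate block, with numbers that were not taken as pairs, gave 3753 calls as a fixed term, with 3 such regulators, and 4281 as a random one; strain effects within a tissue cannot be had with the fixed term. Normexp reversed Cdk1 (-0.43), Nxpe4 (0.18), Pnp2 (0.39) and Wfdc21 (0.15), and the series table Pnp2 (0.09). The 75th percentile over spots, chosen after seeing the data, gave 3672. Without 1 array, calls were 2641 to 4104 (1217 to 2061 higher, 1358 to 2043 lower), opposite effects 156 to 280 (85 to 156 and 71 to 165), opposite gaps 180 to 280, regulators 1 to 2 and white genes 4 to 5. The causes were not tested. Dim probes gave only bounds.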
